A study of Oryza sativa with 15 samples.

Results

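The effect of the japonica against the indica allele was measured in rice endosperm of 2 separate sets of reciprocal hybrids, to find which allele differences were shared by both sets and which appeared in 1 set. In the LR-RL set, the LR cross had the japonica line Liuqianxin-A as mother and the indica line Rongfeng-B as father, and the RL cross had Rongfeng-A as mother and Liuqianxin-B as father. In the YW-WY set, the YW cross had the japonica line Yu6-A as mother and the indica line Wufeng-B as father, and the WY cross had Wufeng-A as mother and Yu6-B as father. Lines named A carry cytoplasmic male sterility, so that their pollen is sterile, and lines named B are the fertile maintainers with the same nuclear genome. Every hybrid seed in all 4 crosses therefore grew on a male-sterile mother, and each strain type is represented by a single line per set. Endosperm was collected 5 days after fertilization, with 20 to 30 endosperms pooled per replicate, and RNA was sequenced from 3 LR, 3 RL, 2 YW and 2 WY libraries. The 5 inbred libraries of Liuqianxin and Rongfeng have no columns in the allele tables and were not used here.

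A locus was included when it stood in the allele tables of both sets with at least 30 allele reads in LR and in RL and at least 20 in YW and in WY. This held for 9753 of 10849 loci in both tables, and of 13828 loci in either table. The replicate libraries of a cross are pooled in the deposited counts, so no value below carries a spread between replicates. The 262 loci just inside the read minimum (less than 1.2 times it in their shallowest cross) had a median absolute effect of 0.59 for LR-RL and 0.60 for YW-WY, and the 283 just outside it (at least 0.8 times it) had 0.63 and 0.69.

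Where 2 alleles sit in the same nucleus, they meet the same transcription factors and other diffusible regulators. A difference in transcript level between them is therefore usually read as a difference in cis, that is, in the regulatory or transcribed sequence of the allele itself. Endosperm is triploid and holds 2 maternal genomes and 1 paternal genome, and imprinted genes depart from that dosage by parent. In reciprocal crosses a strain difference keeps to the japonica or the indica allele whichever parent gave it, while an imprinted difference changes strain when the direction of the cross is reversed.

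The strain effect of a set was the mean, over its 2 crosses, of the log2 ratio of japonica to indica reads, with 0.5 added to each count and each cross taken relative to its own median ratio. A value of 1 means that the japonica allele had 2-fold more reads than the indica allele, and a negative value means that the indica allele had more. The median maternal share of a locus was 67.1% in LR and 63.8% in RL, then 74.9% in YW and 63.2% in WY. Without the per-cross medians, the median strain effect was 0.098 for LR-RL and 0.397 for YW-WY, so all effects are given relative to those shifts. The median locus had 434 allele reads in LR and 412 in RL, then 481 in YW and 331 in WY, which gave a median counting error (SE) of the effect of 0.116 for LR-RL and 0.123 for YW-WY. Endosperm marker genes were read in every cross. Their 22 loci, among them the prolamin-box factor gene LOC_Os02g15350 and the ADP-glucose carrier gene LOC_Os02g10800, held 11.5% of the allele reads in LR and 24.3% in RL, and 26.1% in each of YW and WY, with none at 0. Single markers did not all follow the sum. From LR to RL, reads rose at LOC_Os02g15350 (41218 to 68294) and fell at LOC_Os02g10800 (163140 to 132891). They also fell at NF-YB1 (LOC_Os02g49410, 18174 to 2428) and at the sucrose transporter gene LOC_Os03g07480 (911 to 98). The 4 embryo marker loci held at most 0.00388% in any cross, and no locus of the seed coat list stood in both tables, so maternal seed coat RNA was not tested. Endosperms were sampled whole, so fewer cells of a type and less RNA per cell cannot be told apart, and an allele that is missing from a line or whose reads fail to align counts like an allele that is not transcribed.

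Most loci had small strain effects in both sets. The middle 50% of loci lay between -0.314 and 0.341 in LR-RL and between -0.315 and 0.396 in YW-WY, and 64.6% of loci in LR-RL and 62.1% in YW-WY had an absolute effect under 0.5. The tails reached from -10.47 to 11.53 in LR-RL and from -10.63 to 9.89 in YW-WY. An effect of at least 5, at which nearly all reads came from the japonica allele, was seen at 221 loci for LR-RL and 264 for YW-WY. The opposite, an effect of at most -5, was seen at 74 and 68 loci. Across the 9753 loci the correlation between the sets was 0.803 by Pearson and 0.657 by Spearman. The loci are not independent replicates, and the sets share the table processing but no library and no parental line. By size alone, 1665 loci (17.1%) reached an absolute effect of 1 in LR-RL, 966 (9.90%) toward japonica and 699 (7.17%) toward indica. In YW-WY 1836 (18.8%) did, 1197 (12.3%) toward japonica and 639 (6.55%) toward indica. The 1113 that did so in the same direction in both were 66.8% of the LR-RL list and 60.6% of the YW-WY list.

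**Figure D1:**
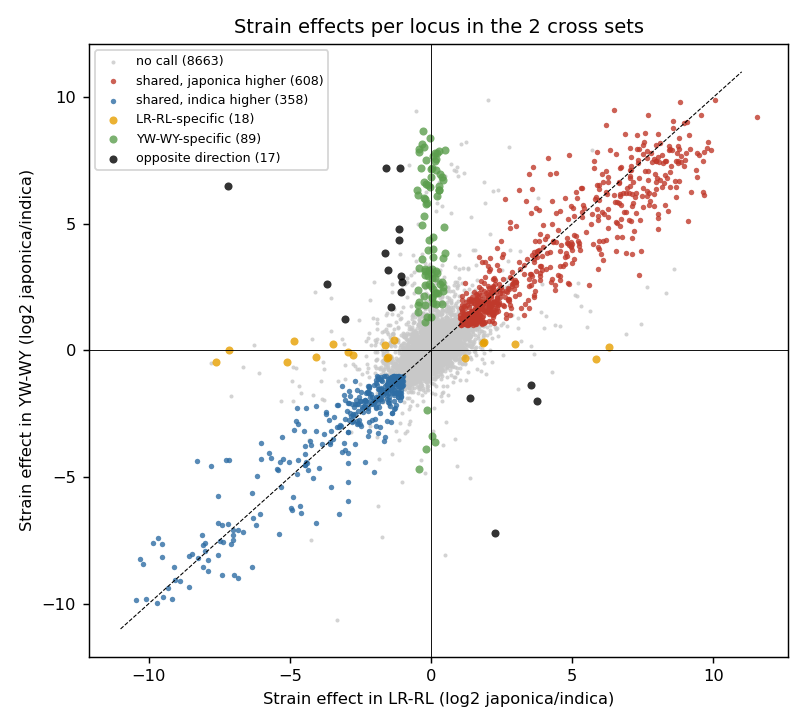
Strain effect per locus (log2 of japonica over indica reads) in LR-RL on the x axis and in YW-WY on the y axis for the 9753 tested loci, coloured by call, with the dashed line marking equal effects. The 608 and 358 shared loci follow the diagonal, while most of the 89 YW-WY-specific loci form a column above 0 on the y axis at an effect near 0 in LR-RL.

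Strain effects were called with edgeR's quasi-likelihood test on the 8 allele counts of a locus (maternal and paternal reads in the 4 crosses), adjusted over all loci by the Benjamini-Hochberg method. The 2 sets serve as replicates in this test, which leaves 2 residual degrees of freedom for the strain term. Of 9753 loci, 1061 (10.9%) passed an adjusted p of 0.05 with the japonica allele higher and 876 (8.98%) with the indica allele higher. A locus was called shared when it also had an absolute effect of at least 1 in the same direction in both sets and lay on the same strain side in all 4 crosses. Shared calls numbered 608 (6.23%) toward japonica and 358 (3.67%) toward indica. Fitted without RL they numbered 380 and 190, without WY 416 and 210, without LR 501 and 264 and without YW 525 and 268. Of the shared calls, 62.9% were toward japonica. Against a fixed ratio of 2 maternal to 1 paternal in place of each cross's median, the numbers were 780 and 256, of which 75.3% were toward japonica, so the split depends on that choice.

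The loci called shared toward japonica had a median effect of 3.14 for LR-RL and 2.90 for YW-WY, and those toward indica had -2.20 and -2.06. With loci whose lower allele had no read set to the bound that a floor of 3 reads per cross allows, the japonica medians were 3.14 and 2.88 and the indica medians did not move. An effect of at least 5 in both sets was found at 176 of the 608 loci, and one of -5 or below in both at 49 of the 358. Of the single SNPs in japonica calls that were read 20 times or more per cross, 98.4% for LR-RL and 98.0% for YW-WY lay on the japonica side. Of those in indica calls, 98.8% and 98.0% lay on the indica side. The calls were made from the sums of these same SNPs, so such shares follow in large part from the selection. A single SNP stood for the locus in YW-WY at 61 of the japonica and 48 of the indica calls. Loci annotated only as expressed or hypothetical proteins or as transposons made up 53.5% of the japonica calls and 38.3% of the indica calls, and 24.2% of all tested loci. An adjacent tested locus with the same call was found for 114 of the 608 japonica loci (18.8%) and 49 of the 358 indica loci (13.7%). Of all tested loci 6.23% and 3.67% had these calls, so some neighbours share a call without any grouping. Whether the calls were grouped along the chromosomes was not tested.

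The shared japonica loci with the largest effects had almost no indica read in any cross. Coordinates below are those of the outermost SNPs as the tables give them, whose labels and headers name no genome build. LOC_Os05g04215 (chromosome 5, 1910373 to 1910395), an expressed protein, had 893 japonica and 0 indica reads in LR, 356 and 0 in RL, 810 and 0 in YW and 482 and 0 in WY. With the floor of 3 reads per cross, its japonica allele was at least 175-fold higher in LR-RL and at least 158-fold higher in YW-WY. The strain term had an adjusted p of 0.00627 (edgeR). LOC_Os11g29050 (chromosome 11, 16824949 to 16826188) belongs to the NBS-LRR genes, which encode intracellular immune receptors of plants. It had 445 japonica and 0 indica reads in LR, 373 and 0 in RL, 524 and 0 in YW and 326 and 0 in WY. Its bounds were 126-fold and 105-fold, with an adjusted p of 0.00782 (edgeR).

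Some of the 8 japonica loci named were annotated for transport or ubiquitin. The transporter and ubiquitin lists were called toward japonica less often than all loci (6.23%), at 3.80% of 158 and 0.806% of 124. LOC_Os01g68510 (chromosome 1, 39810340 to 39814957) encodes a PTR2-type transporter, a family that carries small peptides or nitrate across membranes. At its 11 SNPs it had 1001 japonica and 1 indica reads in LR, 879 and 2 in RL, 1931 and 2 in YW and 908 and 0 in WY, for effects of 8.82 and 9.81 (adjusted p = 0.00215, edgeR). The potassium channel gene LOC_Os03g28120 had 1037 japonica and 4 indica reads in LR, 633 and 0 in RL, 544 and 0 in YW and 616 and 1 in WY. LOC_Os07g30640 is annotated as a ubiquitin fusion protein, a form in which the protein tag ubiquitin is made. Its japonica and indica reads were 154 and 0 in LR, 267 and 0 in RL, 1264 and 2 in YW and 1432 and 1 in WY. LOC_Os08g04480, whose Appr-1-p processing domain acts on ADP-ribose derivatives, had effects of 8.57 and 8.78. The expressed proteins LOC_Os10g22100 and LOC_Os11g43914 completed the 8, with effects of 11.53 and 9.22 and of 9.07 and 9.02. In each of these 8 loci all 4 crosses gave almost no other than japonica reads.

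On the indica side the picture was mirrored. LOC_Os11g19880 (chromosome 11, 11455121 to 11456048), an O-methyltransferase that would move methyl groups onto small molecules, had 0 japonica and 1481 indica reads in LR, 11 and 6747 in RL, 0 and 547 in YW and 11 and 5185 in WY. Its effects were -10.47 for LR-RL and -9.85 for YW-WY (adjusted p = 0.00173, edgeR). LOC_Os12g33220 is an F-box/LRR gene, of a family that selects proteins for ubiquitination. It had 18 japonica and 1600 indica reads in LR, 1 and 2221 in RL, 3 and 858 in YW and 1 and 1501 in WY. Its effects were -8.59 and -9.35.

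A pair of genes with ribosomal protein annotations lay on the indica side too. LOC_Os10g20990, with a ribosomal protein S12 annotation, had no japonica read in any cross against 260, 436, 307 and 341 indica reads in LR, RL, YW and WY, so the indica allele was at least 121-fold and at least 142-fold higher. That value rests on a single SNP. LOC_Os07g33860, a gene for the large-subunit protein L44, had 2 japonica and 929 indica reads in LR, 1 and 1042 in RL, 2 and 569 in YW and 2 and 887 in WY. Ribosomal protein genes have many near-identical copies, so the source of such reads is uncertain. LOC_Os11g27440, annotated as MLA7 after a barley mildew-resistance receptor, had 0 japonica reads in all 4 crosses against 732 indica reads in LR and 471 in RL, then 150 in YW and 88 in WY. None of its 17 LR-RL SNPs and 6 YW-WY SNPs was the same position, so the sets called it at different bases. The expressed proteins LOC_Os01g36820, LOC_Os04g51480 and LOC_Os04g13260 had effects of -10.11 and -9.81, of -9.71 and -9.99 and of -9.33 and -9.38.

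Starch synthesis and sugar supply are the main business of the filling endosperm, and those of their listed genes that could be tested had no shared or set-specific call. Of all tested loci 9.90% had a shared call, and 0.185% and 0.913% were specific to LR-RL and to YW-WY. With only 10 genes tested, the absence of a call is near those shares. Of the 16 genes listed, 10 were tested, and their median absolute effect was 0.13 for LR-RL and 0.10 for YW-WY, where all tested loci had 0.33 and 0.35. Most of these genes were read far more deeply than the median locus, where counting error is a larger part of the effect. The comparison was not matched for depth. The listed genes Wx, SSI, BEIIb, PUL, AGPL2 and PPDKB did not stand in both tables, so their strain effects are not known here. The sucrose synthase gene LOC_Os06g09450, which splits sucrose on its arrival in the seed, had 137936 japonica and 60221 indica reads in LR, 63330 and 121961 in RL, 59029 and 17853 in YW and 56774 and 110536 in WY. Its effects were 0.02 (95% counting interval 0.01 to 0.03) and -0.01. The second sucrose synthase gene, LOC_Os07g42490, had -0.09 and -0.25. The soluble starch synthase gene LOC_Os06g12450 (SSIIa), which lengthens amylopectin chains and differs between many japonica and indica varieties in enzyme activity, had effects of -0.02 and -0.06 over 9 SNPs in each set.

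The starch synthase III gene LOC_Os08g09230 had -0.10 and 0.14, the branching enzyme gene LOC_Os06g51084 -0.15 and 0.05, and the plastidial phosphorylase gene LOC_Os03g55090 -0.11 and -0.07. These 6 values lay between -0.15 and 0.14, under the size of 1 that a call required. The ADP-glucose pyrophosphorylase gene LOC_Os08g25734, of the step that makes the glucose donor of starch, had 0.22 and 0.03. Effects were below 0 in both sets at the ADP-glucose carrier gene LOC_Os02g10800 (-0.21 and -0.33, adjusted p = 0.0974, edgeR) and at the isoamylase gene LOC_Os08g40930 (-0.46 and -0.29, adjusted p = 0.0739, edgeR), neither of which passed the test. At positions in both tables the carrier gene had an effect over both sets of -0.57, against -0.27 with all SNPs, and passed (adjusted p = 0.0151, edgeR). Its single SNPs ran from -2.33 to 3.46 in LR-RL and from -1.17 to 5.11 in YW-WY. The isoamylase gene passed with DESeq2 (adjusted p = 0.0435). The sucrose transporter gene LOC_Os03g07480 had 0.81 and -0.27, from only 98 allele reads in RL and 107 in WY.

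Among annotated gene groups, immune receptors and transposons held the highest shares of shared calls. The groups were taken by annotation words, and their counts are set beside the 9.90% of all loci with a shared call, with no test of a group. Of 45 NBS-LRR loci, 9 were called toward japonica and 7 toward indica, 35.6% in all, and their median absolute effect was 0.80 for LR-RL and 0.75 for YW-WY. Of 245 transposon loci, 41 and 22 were called (25.7%). Of 248 F-box loci 22 and 18 were called (16.1%), of 66 receptor kinase loci 8 and 2 (15.2%), and of 30 cytochrome P450 loci 2 and 2 (13.3%). Reads of such families can be divided between near-identical copies, so which copy gave them is uncertain.

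The following groups lay nearer to or below the share of all loci. Ribosomal protein loci had 9 and 11 calls of 186 (10.8%), redox enzymes 6 and 5 of 101 (10.9%), glycosyl hydrolases and transferases 5 and 3 of 87 (9.20%) and transporters 6 and 8 of 158 (8.86%). Pentatricopeptide repeat genes, whose proteins bind organelle RNA, had 5 and 2 calls of 128 (5.47%). Transcription factors had 9 and 4 of 274 (4.74%), ubiquitin and proteasome genes 1 and 4 of 124 (4.03%) and chaperones 2 and 1 of 106 (2.83%). Against the fixed 2:1 ratio, the side with more calls changed for transporters (7 and 4) and ribosomal proteins (11 and 5), and seed storage genes had 4 and 4.

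**Figure D2:**
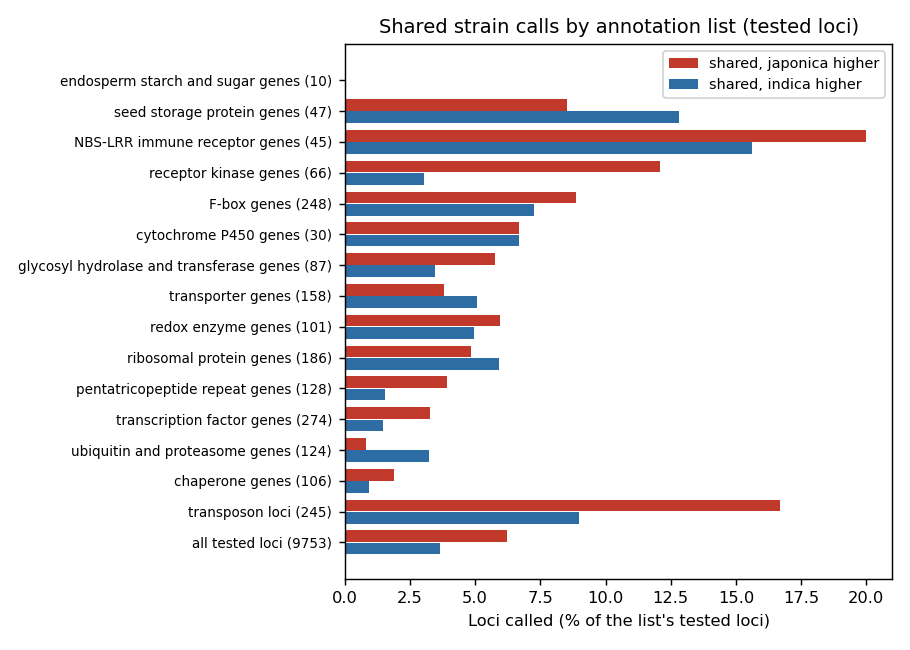
Share of each annotation list's tested loci (number in brackets) with a shared strain call, toward japonica in red and toward indica in blue. The NBS-LRR and transposon lists reach 20.0% and 16.7% toward japonica, against 6.23% of all tested loci. The starch list has none among its 10 loci, which is near the 9.90% of all tested loci with a shared call.

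Of 47 seed storage protein loci, 4 were called toward japonica and 6 toward indica (21.3%). This list was taken by annotation words and also holds genes of the protease inhibitor, seed storage and lipid transfer protein family, such as LTPL31. Its share is thus not one of storage protein genes alone. The glutelin gene LOC_Os02g15150 (chromosome 2, 8446826 to 8448489) encodes a major storage protein of rice. It had 267506 japonica and 2169 indica reads in LR, 296302 and 11671 in RL, 552792 and 6325 in YW and 318689 and 9274 in WY. The japonica allele was higher in every cross, with effects of 5.70 and 5.38 (adjusted p = 0.00229, edgeR). The prolamin gene PROLM14 (LOC_Os05g26620) went the other way, with 8 japonica and 2000 indica reads in LR, 679 and 87288 in RL, 53 and 1726 in YW and 85 and 19699 in WY. Its effects were -7.55 and -6.83 (adjusted p = 0.00385, edgeR). Both families consist of close copies, so which copy gave these reads is uncertain.

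In the other groups the called members with the largest effects were shared in most cases. The glutathione S-transferase gene LOC_Os10g38630, of a family that conjugates toxins and stress products, had 1895 japonica and 13 indica reads in LR, 1433 and 2 in RL, 4663 and 10 in YW and 1366 and 2 in WY. Another member, LOC_Os10g38160, had effects of -6.21 and -6.89, toward indica. The F-box genes OsFBX71 (LOC_Os02g57860) and OsFBX283 (LOC_Os08g18000) were read almost only from the indica allele, with effects of -9.69 and -7.42 and of -8.01 and -7.94. The wall-associated receptor genes OsWAK84 (LOC_Os09g29584) and OsWAK28 (LOC_Os03g62430), whose family senses cell wall pectin in Arabidopsis, had effects of 8.04 and 5.22 and of 4.22 and 6.96. The P450 gene LOC_Os07g33610 had 251 japonica and 5228 indica reads in LR, 319 and 14315 in RL, 460 and 3208 in YW and 254 and 9664 in WY, so that the indica allele was higher throughout. The GRAS transcription factor gene LOC_Os11g04570 had effects of 7.15 and 6.64. The CACTA transposon locus LOC_Os02g53020 had -9.18 and -9.80 over 47 SNPs in LR-RL and 46 in YW-WY, and the retrotransposon loci LOC_Os01g37350 and LOC_Os04g21580 had 9.92 and 7.93 and 7.67 and 9.28.

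A test of the difference between the sets, the strain-by-set term of the same edgeR model, passed at 171 loci (1.75%). This term has 1 residual degree of freedom per locus, which is the difference of the parent effect between the sets. At 37 of the loci (0.379%) the effect was more japonica in LR-RL and at 134 (1.37%) more japonica in YW-WY. A locus was called specific to a set when it passed this test with an absolute effect of at least 1 in that set and under 0.5 in the other. In LR-RL 18 loci (0.185%) were specific, 6 (0.0615%) toward japonica and 12 (0.123%) toward indica. In YW-WY 89 loci (0.913%) were specific, 84 of them (0.861%) toward japonica and 5 (0.0513%) toward indica. Another 17 loci (0.174%) had effects of at least 1 in opposite directions, 4 (0.041%) with japonica higher in LR-RL and 13 (0.133%) with indica higher in LR-RL. At an unadjusted p under 0.05, 993 loci differed.

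These numbers depended on which SNPs were read. The tables of the sets list overlapping but not identical positions: of the SNPs of tested loci, 46422 were in both tables, 9377 only in that of LR-RL and 6182 only in that of YW-WY. With only the positions in both tables, 16 of 9348 loci (0.171%) differed between the sets, 3 were specific to LR-RL, 7 to YW-WY and 3 were opposite. The shared calls were 619 and 395 on the same positions, and 563 of 576 testable japonica calls and 335 of 344 indica calls remained. These positions were 83.2% of the LR-RL and 88.2% of the YW-WY SNPs of tested loci. The retained calls are thus no independent evidence. The correlation between the sets was 0.905 by Pearson and 0.71 by Spearman over those 9348 loci. By the listing of a locus's SNPs, a difference was called at 13 of 5114 loci with all SNPs in both tables (0.254%), at 106 of 4473 with some (2.37%) and at 52 of 166 with none (31.3%). The loci with none were also shallower, with a median of 814 reads over the 4 crosses against 1920.5.

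SNPs listed only for YW-WY were read from the japonica allele alone far more often than the rest. Of the 3460 with at least 20 reads in both crosses, 1138 (32.9%) had an effect of at least 5 and 46 (1.33%) one of at most -5. At positions in both tables, 4.16% of 40987 SNPs had an effect of at least 5 in YW-WY. In LR-RL the shares were 7.40% of 5977 SNPs in its table only and 4.78% of 40999 in both. Among pairs of neighbouring SNPs of a locus at most 50 bases apart, which many reads can cover together, the effects in YW-WY differed by over 2 at 3.80% of 10754 pairs with both positions in both tables. Where 1 of the 2 positions was only in the YW-WY table, 30.5% of 662 pairs differed by as much, and the same comparison in LR-RL gave 9.32% of 923 pairs. Which strain carries the reference base is not given in the YW-WY table, so whether allele labels or alignment differ at these positions was not tested.

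**Figure D3:**
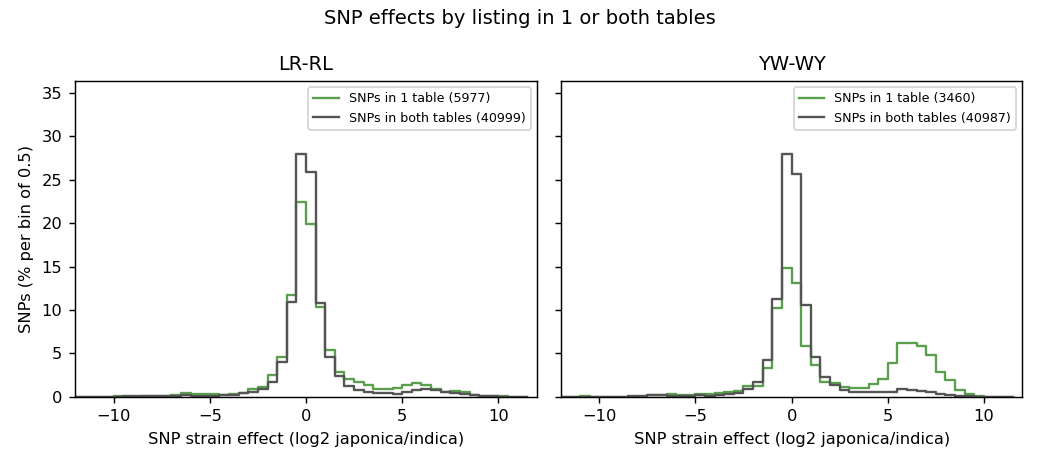
Distribution of the strain effect of single SNPs (log2 of japonica over indica reads, bins of 0.5, percent of SNPs with at least 20 reads in both crosses) in LR-RL and YW-WY, for positions in 1 table and in both. Every distribution is highest near 0 and has a second, lower mode between about 5 and 8. In YW-WY this mode reaches 6.21% per bin at positions in 1 table and holds much of the 32.9% at 5 or above. It reaches 1.61% in LR-RL at positions in 1 table, and 0.93% in LR-RL and 0.85% in YW-WY at positions in both.

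LOC_Os02g17610, an expressed protein on chromosome 2, shows this pattern base by base. Substitutions are written as the reference base of the tables, the position on the chromosome and the other base. T10134365C, in both tables, had 0 japonica and 151 indica reads in LR, 0 and 231 in RL, 0 and 88 in YW and 0 and 149 in WY. C10134369T, 4 bases away and only in the YW-WY table, had 94 japonica and 0 indica reads in YW and 161 and 0 in WY. Neighbouring bases of the same locus were thus assigned to opposite strains in the same libraries. The next pair repeated it: A10134419G had 0 japonica and 111 indica reads in YW and 1 and 224 in WY, and G10134429A, only in the YW-WY table, had 123 and 0 in YW and 250 and 0 in WY. Summed over its SNPs the locus had effects of -4.07 for LR-RL and -0.26 for YW-WY, a difference of -3.81 (adjusted p = 0.00895, edgeR), whereas each position in both tables lay on the indica side in both sets.

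Of the 84 loci specific to YW-WY toward japonica, 33 (39.3%) had no position in both tables, against 1.70% of all tested loci. In the 43 that had both kinds of position with enough reads, the median YW-WY effect was 0.13 at positions in both tables and 7.52 at those only in the YW-WY table. The effect at positions in both tables was under 1 at 39 of the 43. Of the 46 loci testable on positions in both tables, 5 remained specific. Of the 12 loci specific to LR-RL toward indica, 10 were testable on positions in both tables. Their YW-WY effect there had a median of -0.57 and was under 1 in size at 6 of the 10, and 2 remained specific. In the 6 of the 12 loci with both kinds of position at enough reads in YW-WY, its median was -4.75 at positions in both tables and 6.88 at the others. For 4 loci specific to LR-RL toward japonica with both kinds, the YW-WY medians were 0.47 and 0.23.

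The YW-WY-specific japonica loci were concentrated on few chromosomes. Chromosome 2 held 36 (2.88% of its tested loci), chromosome 9 held 17 (3.97%) and chromosome 5 held 10 (1.40%), while chromosomes 8 and 11 held none of 683 and 542. An adjacent tested locus with the same call was found for 28 of the 84 (33.3%), where 0.861% of all tested loci had this call. The same chromosomes had the highest shares of YW-WY-only SNPs with an effect of at least 5: 74.7% on chromosome 9, 55.8% on chromosome 2 and 52.2% on chromosome 5, against 4.81% on chromosome 7. Around these loci the tables themselves differed. Within 250 kilobases on either side, without the locus itself, a median of 55.6% of the LR-RL SNPs was also in the YW-WY table, against 85.4% around all tested loci. Fewer than 50% of the surrounding LR-RL SNPs were in the YW-WY table for 33 of 81 YW-WY-specific japonica loci (40.7%), and for 521 of 9650 tested loci (5.40%). Among those 521 loci, 9.40% differed between the sets and 8.25% had a shared call, and among the other 9129 these shares were 1.29% and 10.0%. The window and the pair distance were chosen after the values had been seen.

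The 5 loci with the largest differences of this kind each rested on YW-WY reads of almost only the japonica allele. LOC_Os09g36190 (chromosome 9, 20863281 to 20865006), a family 8 glycosyl transferase that links sugars to other molecules, had 1759 japonica and 1001 indica reads in LR and 1120 and 2566 in RL, close to the median locus. It had 485 and 1 in YW and 435 and 0 in WY, for effects of -0.30 and 8.66 (adjusted p of the difference = 0.00895, edgeR). All YW-WY reads came from C20864250A, which is in both tables and had 343 japonica and 204 indica reads in LR. LOC_Os09g32650, the cytoplasmic leucyl-tRNA synthetase that charges tRNA with leucine, had effects of -0.31 and 8.14 with no position in both tables. The kinase gene LOC_Os09g30150 had -0.03 and 8.38, the heavy metal-associated domain gene LOC_Os09g20000 had -0.42 and 7.94, and the YVH1-type phosphatase gene LOC_Os02g15270 had -0.27 and 8.05, again with no position in both tables.

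The gene groups had 6 named members specific to YW-WY toward japonica, and in each the reads of YW and WY came almost only from that allele. The AP2-domain transcription factor gene LOC_Os01g04020 had 1703 japonica and 671 indica reads in LR, 1073 and 1795 in RL, 2496 and 13 in YW and 1632 and 3 in WY. The chaperonin gene LOC_Os09g26730, whose protein family folds other proteins, had 332 and 102 in LR, 142 and 203 in RL, 10358 and 67 in YW and 13465 and 20 in WY. The dnaJ gene LOC_Os05g48810, the pentatricopeptide repeat genes LOC_Os03g02430 and LOC_Os05g50950 and the transcription factor-like gene LOC_Os02g35690 had YW-WY effects of 6.14, 7.46, 6.45 and 6.35. None of these 6 loci had a position in both tables. With at least 100 reads per cross, LOC_Os09g26730, LOC_Os05g48810, LOC_Os02g35690 and the leucyl-tRNA synthetase gene LOC_Os09g32650 no longer passed (adjusted p between 0.057 and 0.0933, edgeR).

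**Figure D4:**
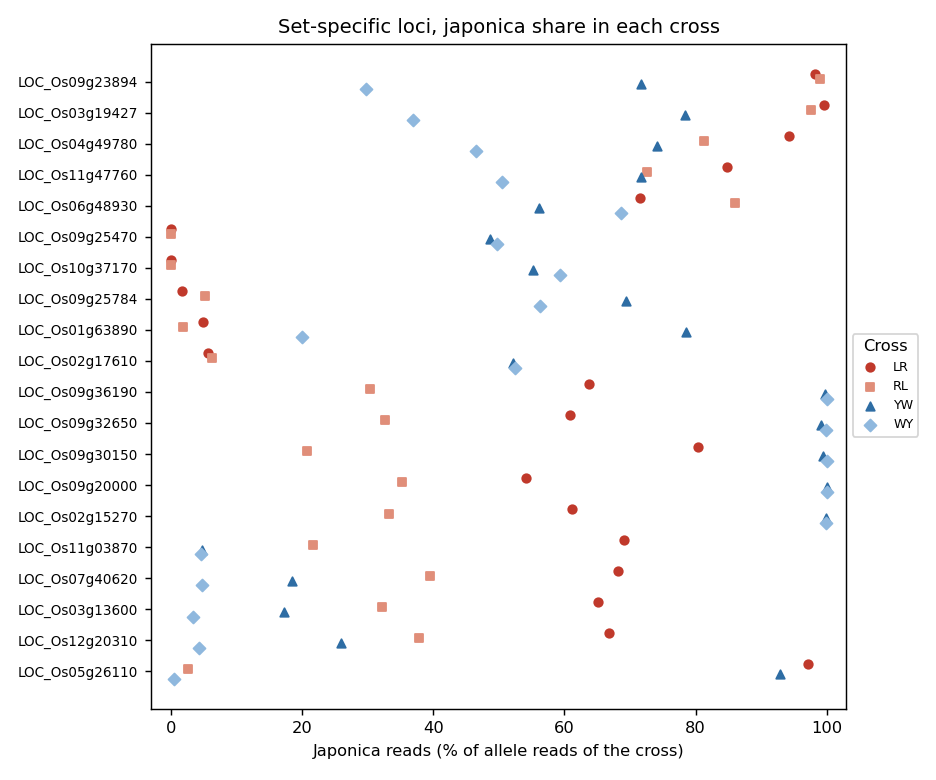
Japonica share of the allele reads in LR, RL, YW and WY (percent, pooled libraries) for the 20 set-specific loci named by rule, from LR-RL-specific at the top to YW-WY-specific at the bottom. The 5 YW-WY-specific japonica loci lie near 100% in YW and WY while LR and RL stand apart by mother, and LOC_Os05g26110 at the bottom is split by mother in every cross.

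In LR-RL the specific loci were fewer and more varied. LOC_Os03g19427 is annotated as nicotianamine synthase, which makes a chelator of iron and zinc. It had 516 japonica and 2 indica reads in LR, 157 and 4 in RL, 420 and 116 in YW and 143 and 245 in WY, for effects of 6.31 and 0.14 (adjusted p of the difference = 0.00895, edgeR). Its 2 positions in both tables were read almost only from japonica in YW-WY as well: T10929660C had 159 and 0 reads in YW and 66 and 0 in WY. All of its indica reads in YW and WY came from T10930517C, only in the YW-WY table, with 150 japonica and 116 indica reads in YW and 39 and 245 in WY. LOC_Os09g23894 had effects of 5.84 and -0.34, LOC_Os06g48930 had 1.86 and 0.34, and the transposon locus LOC_Os04g49780 had 2.96 and 0.26. At positions in both tables the difference was 1.39 at LOC_Os06g48930 (adjusted p = 0.253, edgeR) and 2.92 at LOC_Os04g49780 (adjusted p = 0.238, edgeR), and LOC_Os09g23894 had no such position. The call at LOC_Os06g48930 was lost also against the 2:1 ratio, with the deepest SNP, with at least 100 reads per cross and with DESeq2 (adjusted p between 0.0786 and 0.307).

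The DnaK gene LOC_Os11g47760, an Hsp70-type chaperone, was the most deeply read of the LR-RL-specific loci named. It had 300791 japonica and 53783 indica reads in LR, 210018 and 79175 in RL, 170251 and 67379 in YW and 104160 and 102410 in WY. Its effects were 1.84 and 0.28, a difference of 1.56 (95% counting interval 1.54 to 1.57, adjusted p = 0.0216, edgeR). These sums mix unlike positions: the single LR-RL SNPs had effects either of 0.40 to 0.82 or of 7.83 to 9.76. With the deepest SNP of each set alone the difference was 8.83 (adjusted p = 8.83e-05, edgeR). That value sets different bases against each other, T28807788C in LR-RL and T28807767C in YW-WY. The call was lost against the 2:1 ratio (1.26, adjusted p = 0.186, edgeR) and with at least 100 reads per cross (1.55, adjusted p = 0.0558, edgeR). Toward indica, LOC_Os09g25470 and the retrotransposon locus LOC_Os10g37170 had 0 japonica reads in LR and RL and similar numbers of both alleles in YW and WY. At LOC_Os09g25470 the sets did not differ in direction at the position in both tables, A15268504G, with 0 japonica and 57 indica reads in YW and 0 and 78 in WY. LOC_Os09g25784, annotated as the auxin-induced protein 5NG4, had 2 japonica and 112 indica reads in LR, 4 and 73 in RL, 34 and 15 in YW and 63 and 49 in WY, for effects of -4.86 and 0.36. At its position in both tables, T15452196C, it had 0 japonica and 15 indica reads in YW and 0 and 49 in WY, so its japonica reads of YW and WY all came from positions only in the YW-WY table. At LOC_Os10g37170 the difference was -0.86 at positions in both tables (adjusted p = 0.883, edgeR), against -7.17 with all SNPs.

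Toward indica in YW-WY, 5 loci were called. The lipid transfer protein-like gene LTPL31 (LOC_Os11g03870) had 212 japonica and 95 indica reads in LR, 25 and 90 in RL, 23 and 458 in YW and 6 and 126 in WY. Its effects were -0.44 and -4.68 (adjusted p of the difference = 0.0488, edgeR). The 3 positions in both tables had YW-WY effects between -4.65 and -4.38 and LR-RL effects between -0.58 and -0.23, and over them the difference was 4.18, but it no longer passed (adjusted p = 0.21, edgeR). With at least 100 reads per cross it was 4.23, with an adjusted p of 0.0879 (edgeR). The saccharopine dehydrogenase gene LOC_Os07g40620, of lysine breakdown, had 0.14 and -3.63 with no position in both tables. LOC_Os12g20310, annotated as sarcoma antigen NY-SAR-91, had 0.04 and -3.39, but at its 2 positions in both tables the YW-WY effects were -0.21 and -0.15. The Mutator transposon locus LOC_Os05g26110 had a maternal bias in every cross and effects of -0.16 and -2.35, a difference that changed sign at positions in both tables (2.19 with all SNPs, -1.13 there).

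At the positions in both tables, 16 loci differed between the sets, of which 14 also differed with all SNPs. They are described because the bases read were the same in both sets, a selection made after the values had been seen, and 627 of the 9348 loci had an unadjusted p under 0.05. In 11 the effect was more japonica in YW-WY and in 5 more japonica in LR-RL. The clearest by depth was LOC_Os07g38290 (chromosome 7, 22996808 to 23001706), with a plastocyanin-like copper-binding domain. Over 18 shared positions it had 2559 japonica and 14306 indica reads in LR, 2121 and 22863 in RL, 47027 and 20162 in YW and 25630 and 43768 in WY. The indica allele was higher in LR-RL, with an effect of -3.06 (95% counting interval -3.10 to -3.01), against -0.14 (-0.16 to -0.13) in YW-WY (adjusted p = 0.0235, edgeR).

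LOC_Os01g63890 (chromosome 1, 37070823 to 37071870) encodes a G10 protein, related to a splicing factor of yeast. At 6 shared positions it had 22 japonica and 424 indica reads in LR, 24 and 1297 in RL, 1500 and 410 in YW and 248 and 991 in WY. Its indica allele was nearly alone in LR-RL (-5.08), against an effect of -0.43 in YW-WY (adjusted p = 0.042, edgeR). LOC_Os03g14310, an expressed protein, had -2.81 and 0.04. At both loci the indica allele was the higher in LR and in RL, and at LOC_Os01g63890 the maternal allele was the higher in YW and in WY.

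Other loci differed through YW-WY. The dihydrolipoyllysine succinyltransferase gene LOC_Os04g32330, of a mitochondrial enzyme complex of the citric acid cycle, had 662 japonica and 253 indica reads in LR, 236 and 425 in RL, 1115 and 4 in YW and 608 and 2 in WY. Its effects were 0.17 and 7.57 (adjusted p = 0.0235, edgeR), from 1 position. AML1 (LOC_Os02g31290), a Mei2-like RNA-binding protein gene, had 150 and 87 in LR, 101 and 160 in RL, 594 and 4 in YW and 271 and 0 in WY, also at 1 position. The RING-type zinc finger gene LOC_Os12g43930 had 0.05 and 2.45 over 3 positions, with 1347 japonica and 97 indica reads in YW and 1461 and 407 in WY. The C2H2 zinc finger gene ZOS3-07 (LOC_Os03g13600) had -0.39 and -3.87 at 1 position, with 19 japonica and 91 indica reads in YW and 10 and 288 in WY. The AMP-binding enzyme gene LOC_Os02g32490 had -0.43 and 6.43, and the glycosyl transferase gene LOC_Os09g36190 had -0.29 and 8.68. Of these 6 loci, 3 lay on chromosomes 2 and 9.

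The prolamin gene PROLM23 (LOC_Os06g31060) had 212 japonica and 307 indica reads in LR, 543 and 1064 in RL, 1975 and 88 in YW and 2280 and 557 in WY at 1 shared position. Its effects were -0.85 and 2.89 (adjusted p = 0.0477, edgeR), and reads of prolamin copies can be mixed. At the DnaK gene LOC_Os11g47760 the 3 shared positions gave 2.29 and 0.55, with single effects in LR-RL of 0.82, 8.70 and 0.63. LOC_Os12g04490, an expressed protein, had effects of 7.30 and 0.64. The nucleobase-ascorbate transporter gene LOC_Os12g39420 had -0.48 and 1.82, with a paternal excess in every cross beside them: 115 japonica and 2316 indica reads in LR, 3275 and 276 in RL, 734 and 1756 in YW and 2101 and 42 in WY.

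**Figure D5:**
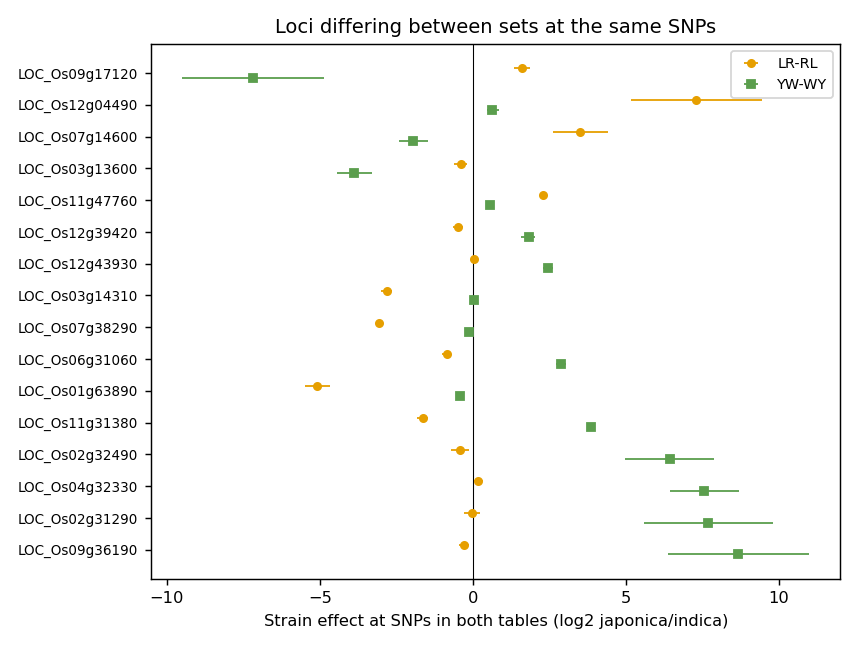
Strain effect at positions in both tables (log2 of japonica over indica reads) in LR-RL (circles) and YW-WY (squares) for the 16 loci that differed there, with bars for the 95% counting interval. In 11 loci the square lies to the right of the circle, and the widest intervals belong to loci whose lower allele had under 5 reads per cross.

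Opposite effects of both sets were called at 17 loci, and 3 were found on shared positions. The ankyrin repeat gene LOC_Os09g17120 had 201 japonica and 51 indica reads in LR, 399 and 145 in RL, 1 and 51 in YW and 0 and 181 in WY at 1 shared position. The japonica allele was higher in LR-RL (1.61) and the indica allele in YW-WY (-7.17), with an adjusted p of 0.0235 (edgeR). The NAC transcription factor gene LOC_Os11g31380 was read at 16 shared positions, with 101 japonica and 9821 indica reads in LR, 1634 and 143 in RL, 8441 and 6174 in YW and 38437 and 148 in WY. Its strain effects of -1.64 and 3.86 stand beside a paternal excess in LR, RL and WY. In YW the maternal allele had more reads, but its share lay below that cross's median maternal share of 74.9%. The hydrolase gene LOC_Os07g14600 had 3.51 and -1.95, with 417 japonica and 2 indica reads in LR, 256 and 285 in RL, 210 and 74 in YW and 11 and 290 in WY, so that the maternal allele was the higher in each cross.

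With all SNPs, the largest opposite difference was at the glycosyl hydrolase gene LOC_Os11g47530, with 0 japonica and 42 indica reads in LR, 0 and 109 in RL, 119 and 0 in YW and 149 and 2 in WY. It had 2 SNPs in LR-RL and 1 in YW-WY, none in common. LOC_Os10g35240, annotated as Rf1 after the pentatricopeptide genes that restore fertility to male-sterile rice, had 8 japonica and 47 indica reads in LR, 3 and 91 in RL, 56 and 6 in YW and 73 and 9 in WY, also without a common position. Its effects were -3.70 and 2.64 (adjusted p of the difference = 0.0306, edgeR). The F-box gene OsFBX404 (LOC_Os11g09590) had 1.37 and -1.90 over 25 and 22 SNPs, of which 14 were in common. On these 14 its difference was 2.71 and did not pass (adjusted p = 0.174, edgeR). LOC_Os12g13674 had 3.53 and -1.36, and its difference of 4.89 was 1.24 at positions in both tables (adjusted p = 0.562, edgeR). One of these, C7710765T, had 70 japonica and 0 indica reads in LR, 93 and 0 in RL, 46 and 0 in YW and 40 and 0 in WY. The cbxX gene LOC_Os02g16660 had -1.12 and 7.22, and LOC_Os02g28860 had -1.60 and 7.22.

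Shared calls were less uneven over the chromosomes than YW-WY-specific ones. Their share ran between 6.72% on chromosome 2 and 16.8% on chromosome 11, where 57 loci were called toward japonica and 34 toward indica of 542 tested. Chromosomes 8 and 12 followed with 13.5% and 12.9%. In the LR-RL table the Liuqianxin base was the reference base at 54051 of 55799 SNPs of tested loci. The 76 loci whose SNPs all had the Rongfeng base as reference had 3 japonica and 2 indica shared calls (3.95% and 2.63%), and the 9191 with only Liuqianxin reference bases had 583 and 327 (6.34% and 3.56%). The median effect was -0.19 for LR-RL and -0.14 for YW-WY in the 76 loci, against 0.00 and 0.01 in the 9191. The part of the reference base in the japonica excess was not tested.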

How the data were processed

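The deposited tables of the authors hold, per SNP and cross, whole-number counts of reads with the maternal and with the paternal allele. Each cross has a column for either allele and none per replicate, per the file headers, so the replicate libraries are pooled. GATK 3.5, SAMtools 0.1.16, Bowtie2 2.2.1 and Trimmomatic 0.32 are listed in the submitters' processing notes with no role or order, and no genome build is named there. Counts were summed over the SNPs of a locus, and a read covering several SNPs enters at each, so counting intervals and floors can be too narrow and cover counting error only. The tested loci held 27724711 allele reads in LR and 31868097 in RL, then 28359872 in YW and 28616498 in WY.

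edgeR 4.0.16 in R 4.3.3 fitted the 8 counts of each locus (quasi-likelihood, terms for cross, parent and strain, then strain by set, with an offset for the median ratio of each cross). The common dispersion was 0.0786 for the strain fit and 0.0287 for the difference fit. Since replicates are pooled, p-values measure no spread between replicates. The residual of the strain test is how far the strain and parent effects differ between the 2 sets. That of the strain-by-set test is only how far the parent effect differs between the 2 sets. A set rests on 1 line of each strain type. DESeq2 1.42.0 was an alternative. In simulated counts of 9753 loci, 49 of 50 shared differences of 3-fold and 50 of 50 of 8-fold were called, with 0 false shared calls among 9553 unchanged loci. Differences made in YW-WY alone were called at 30 of 50 loci for 3-fold and 49 of 50 for 8-fold, with 3 false calls. Every simulated locus had a dispersion of 0.03, near that of the difference fit but below the 0.0786 of the strain fit. Differences between SNPs of a locus and changes of the parent effect between sets were not simulated. These rates therefore need not hold for the real loci.

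The loci named were the 8 shared ones of each direction with the largest smaller effect of the 2 sets, the 5 set-specific ones of each set and direction and the 4 opposite ones of each direction with the largest difference, every tested starch gene and at most 3 called members of each other list. At most 3 per group are unannotated. The members and lists were chosen with earlier results of these data known. Gene names are those of the tables or of the marker list.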

Additional observations from a re-analysis of the deposited data

Results flagged for a closer look

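A test of the difference between the sets in edgeR singled out 171 loci, and the named ones among them are given here as the LR-RL effect minus the YW-WY effect (log2). Among LR-RL-specific loci toward japonica, the differences were 6.18 at LOC_Os09g23894, 6.16 at LOC_Os03g19427, 2.70 at LOC_Os04g49780, 1.56 at LOC_Os11g47760 and 1.51 at LOC_Os06g48930. Toward indica they were -7.18 at LOC_Os09g25470, -7.17 at LOC_Os10g37170, -5.23 at LOC_Os09g25784, -4.63 at LOC_Os01g63890 and -3.81 at LOC_Os02g17610.

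Among YW-WY-specific loci toward japonica, the differences were -8.95 at LOC_Os09g36190, -8.45 at LOC_Os09g32650, -8.41 at LOC_Os09g30150, -8.36 at LOC_Os09g20000 and -8.32 at LOC_Os02g15270. Toward indica they were 4.24 at LOC_Os11g03870, 3.77 at LOC_Os07g40620, 3.71 at LOC_Os03g13600, 3.43 at LOC_Os12g20310 and 2.19 at LOC_Os05g26110. Opposite effects gave 9.46 at LOC_Os09g17120, 5.72 at LOC_Os07g14600, 4.89 at LOC_Os12g13674, 3.27 at LOC_Os11g09590, -13.7 at LOC_Os11g47530, -8.82 at LOC_Os02g28860, -8.34 at LOC_Os02g16660 and -6.34 at LOC_Os10g35240. Whether SNPs listed for only 1 set carry these differences was not tested beyond the values at positions in both tables.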

How the results depend on the processing

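Of the values recomputed for named loci, 678 were counted as unchanged, 20 no longer passed, 10 newly passed and 4 were counted as reversed. The unchanged ones include values near 0 that did not pass and whose sign did change. SSIIa (LOC_Os06g12450), for example, had an effect over both sets of -0.04, and of 0.21 against the 2:1 ratio. With SNPs in both tables only, the difference was 1.04 at LOC_Os09g25470, -1.64 at LOC_Os03g19427 and -1.13 at LOC_Os05g26110, of reversed sign, and with only the deepest SNP it was 0.62 at LOC_Os09g25470. Counts below are LR-RL-specific, YW-WY-specific, opposite and differing loci, in that order. They were 43, 204, 46 and 506 against the 2:1 ratio, 3, 7, 3 and 16 with SNPs in both tables only, 5, 47, 7 and 76 with at least 100 reads per cross (7230 loci), and 177, 350, 42 and 3278 with counting error only. With the deepest SNP of each locus, YW-WY-specific loci numbered 150, opposite 64 and differing 369. That SNP was chosen in each set separately, so the base can differ between the sets. Without loci of parental bias, 41 were LR-RL-specific, 161 YW-WY-specific and 383 differing. Without a read minimum, 29 were opposite. Shared calls toward indica numbered 238 with at least 100 reads. With an effect of at least 2 in both sets, shared calls numbered 365 and 163. Leaving out 1 cross at a time gave 380 to 525 shared japonica and 190 to 268 shared indica calls. The other counts, among them those with DESeq2 and with 5 added to each count, stayed within 1.5 times. Where a setting changed a count, the cause was not tested. No paired analysis was possible because the count columns pool the replicates and carry no replicate number.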
